A study of Mus musculus with 4 samples.

Results

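The 10 integrin genes Itgal, Itgax, Itgae, Itga4, Itgav, Itga1, Itgb1, Itgb2, Itgb3 and Itgb7 were followed in cultured Th2 cells, helper T cells of allergic and anti-worm responses. They were picked by their symbols as integrin subunits that T cells use, with earlier results of these data known. All 10 were found among the 23283 symbols measured. RNA sequencing covered 4 libraries from C57BL/6 mice, 1 per group: Menin knockout (KO) and wild type (WT) Th2 cells from a longer culture named as 3 weeks, and KO and WT Th2 cells after 5 days. All cells were splenic CD4 T cells stimulated for 5 days with IL-2 (15 ng/ml) and IL-4 (10 ng/ml); for the longer culture, 2 cytokine-free days and another 5 days on plate-bound antibody to their antigen receptor followed, now with IL-2 and an IL-4-blocking antibody. The listed steps fall short of 3 weeks. How the remaining time was spent, how Menin was deleted and whether animals were pooled is not stated in the labels.

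Integrins are cell surface receptors made of an alpha and a beta chain, and neither chain reaches the surface well without the other. In T cells the beta chain of Itgb2 pairs with that of Itgal to bind ICAM molecules during arrest and synapse formation. The chain of Itga4 pairs with that of Itgb1 to bind VCAM-1 or with that of Itgb7 to bind MAdCAM-1 of gut vessels, and the chain of Itgae pairs with that of Itgb7 to bind E-cadherin of epithelium. Talin and kindlin bind the beta tails and switch the receptors on.

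Values are FPKM (fragments scaled by transcript length and library depth), a unit that can be compared between genes. Depth read from the steps of low values was 20700000 to 23550000 reads. With 1 library per group no difference has a replicate check and no p-value is given. A gene was compared where its mean over the 4 libraries was at least 1 FPKM, which held for 10973 symbols and for all 10 integrins, although Itgax and Itga1 passed only through the KO libraries. The counts below are over all 10, with Itgax and Itga1 among the genes counted as higher in KO. Leaving out the filter keeps the same 10 genes, so it could not change their counts and is no check on them. Ratios are log2((FPKM + 1)/(FPKM + 1)), which understates differences of low genes, and a gene counted as apart at 2-fold on that scale. Each plain FPKM ratio is given with an exact Clopper-Pearson 95% counting interval from the reads it implies, which covers counting error only. Men1, the gene of Menin, stood at 5.88 FPKM in KO 3-week and 25.4 FPKM in WT 3-week, and at 10.3 in KO 5-day and 32.8 in WT 5-day, lower in both KO libraries. The T cell genes Cd3e and Cd4 had at least 147 FPKM in every library, and the Th2 master regulator Gata3 at least 45.9 FPKM, that lowest value in KO 3-week. Of 11 T cell markers 1 was at least 2-fold higher in KO at 3 weeks and 2 were lower. Among the lower was Cd5, at 3.51 FPKM in KO 3-week and 81.3 in WT 3-week. All 6 Th2 markers were at least 2-fold lower in KO at 3 weeks, and none of the 6 was past 2-fold at 5 days. Over all compared genes 7.97% were higher and 8.19% lower at 3 weeks, and 2.77% and 0.82% at 5 days. As these are bulk cultures, more RNA per cell and more cells that carry it cannot be told apart.

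Integrin RNA was higher in KO cells than in WT cells for nearly every member. In the longer culture 9 of the 10 had a higher FPKM in KO, where 43.9% of all compared genes had a log2 ratio above 0, and after 5 days 10 of 10 had, where 46.1% of all compared genes did. At least 2-fold higher in KO 3-week than in WT 3-week were 4 of 10 (Itgax, Itga1, Itgb2 and Itgb3) and none lower, against backgrounds of 7.97% higher and 8.19% lower (16.2% in either direction) over all 10973 compared genes. After 5 days 3 of 10 were at least 2-fold higher in KO (Itgax, Itga1 and Itgb1) and none lower, against backgrounds of 2.77% and 0.82% (3.59% in either direction). With upper-quartile or median-of-ratios scaling the 3-week count was 6 of 10 higher, against backgrounds of 9.44% or 9.13% higher and 6.2% or 6.48% lower, and among all genes past 2-fold the share higher in KO was 60.4% or 58.5%, beside 49.3% as deposited. With a pseudocount of 5 in place of 1, the 5-day count was 1 of 10 (Itgb1). The median log2 ratio of the 10 was 0.94 at 3 weeks, beside -0.08 over all compared genes, and 0.40 at 5 days, beside -0.02. Summed over the 10 genes, FPKM was 1142 in KO 3-week against 569 in WT 3-week, and 922 in KO 5-day against 658 in WT 5-day.

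**Figure D1:**
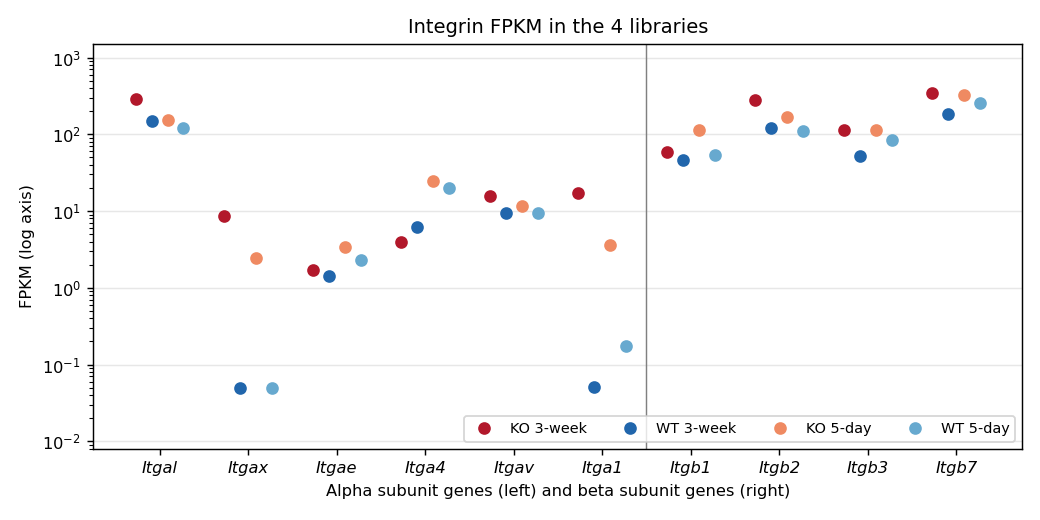
FPKM (log axis) of the 10 integrin genes, alpha subunits left and beta subunits right, with 1 point per library. Itgax and Itga1 reach at most 0.174 FPKM in the WT libraries and at least 2.45 FPKM in the KO libraries, while the 4 beta genes stay at 46.7 FPKM or more.

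**Figure D2:**
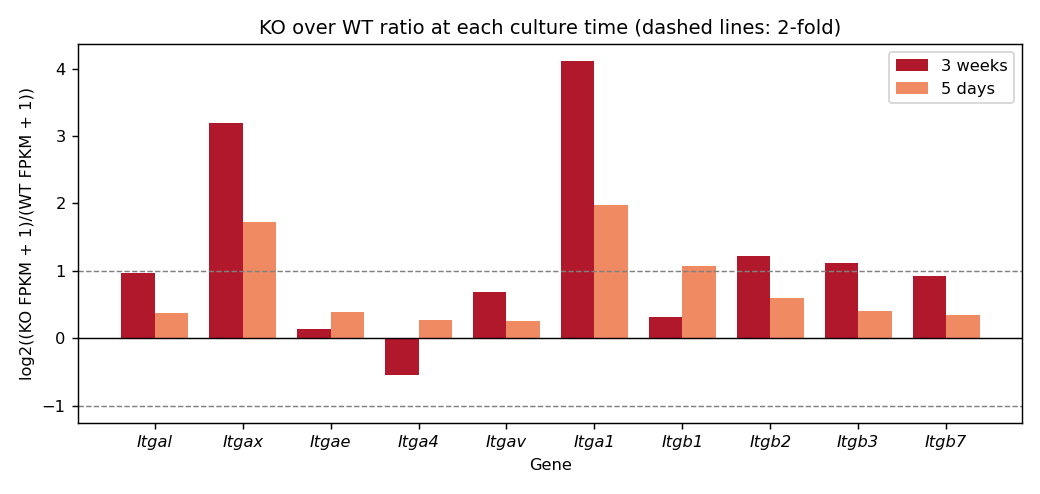
log2((KO FPKM + 1)/(WT FPKM + 1)) of each gene at 3 weeks and at 5 days, with dashed lines at 2-fold. Itga1 reaches 4.11 and Itgax 3.20 at 3 weeks, Itga4 is the bar below 0 at that time, at -0.54, and Itgb1 is taller at 5 days than at 3 weeks.

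The widest differences were those of Itga1 and Itgax, which were hardly seen in WT cells. Itga1 encodes the alpha chain of a collagen receptor that is known from effector and tissue-resident T cells. It stood at 17.2 FPKM in KO 3-week, 0.0511 in WT 3-week, 3.64 in KO 5-day and 0.174 in WT 5-day. Both KO libraries lay above both WT libraries, and the WT values rest on about 13 reads at 3 weeks and 39 reads at 5 days. The KO to WT ratio of FPKM was 336 at 3 weeks (counting interval 196 to 629.8) and 21 at 5 days (15.1 to 29.5), or 4.11 and 1.98 on the log2(FPKM + 1) scale. Between these, the log2 ratios differed by 2.13, which made Itga1 the 1 member of 10 whose genotype ratio was at least 4-fold greater at 3 weeks than at 5 days; the background for a difference of that size was 1.26% greater and 0.784% smaller (2.04% in either direction), and it was not tested. With a pseudocount of 5 no member reached 4-fold. Of the 10, 7 had a greater log2 ratio at 3 weeks than at 5 days, against 42.6% of all compared genes. Of the distinct 50-base words of the Itga1 transcripts 3.27% occur in other genes, and Gm49395 overlaps its exons on the same strand.

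Itgax encodes the alpha chain known as CD11c, a marker of dendritic cells that is also found on some activated T cells and NK cells. It stood at 8.63 FPKM in KO 3-week, 0.0497 in WT 3-week, 2.45 in KO 5-day and 0.0501 in WT 5-day. Each WT value rests on about 4 reads, against about 712 reads in KO 3-week and 213 in KO 5-day. The ratio of FPKM was 174 at 3 weeks (76.0 to 719) and 49.0 at 5 days (18.8 to 181), intervals that overlap. On the log2(FPKM + 1) scale it was 3.20 and 1.72. Of the distinct words of 50 bases in the Itgax transcripts, 8.02% are also in its paralogue Itgad, so reads could be split between these genes for a small part of the transcript.

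The bases before the starts of these genes are shown because both were near the floor in WT and higher in KO. Printed are the 250 bases before the RefSeq start (GRCm38.p6, gene strand), for Itgax at chr7:128129300-128129549 on the plus strand and for Itga1 at chr13:115101965-115102214 on the minus strand. Capitals mark the ETS core GGAA and, in Itga1, the RUNX word TGNGGT and the T-box word GGTGNGA, each on either strand.
Itgax: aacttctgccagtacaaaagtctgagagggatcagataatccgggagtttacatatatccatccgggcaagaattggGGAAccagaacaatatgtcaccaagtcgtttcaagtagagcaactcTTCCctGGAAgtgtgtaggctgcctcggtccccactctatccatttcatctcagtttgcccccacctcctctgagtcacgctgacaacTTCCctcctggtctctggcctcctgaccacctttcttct
Itga1: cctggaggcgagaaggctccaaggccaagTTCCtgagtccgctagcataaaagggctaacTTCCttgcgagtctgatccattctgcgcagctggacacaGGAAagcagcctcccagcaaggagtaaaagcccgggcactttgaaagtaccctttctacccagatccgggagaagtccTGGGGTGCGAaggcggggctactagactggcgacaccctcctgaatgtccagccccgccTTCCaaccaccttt
Each of these promoters holds the ETS core 4 times, a word found in 93.4% of 27025 mouse promoters of the same length. The RUNX word was matched in Itga1 at position -73 from the start, as TGGGGT, and overlaps a T-box match at -70, as GGTGCGA. The N in these words admits any base, so they are loose. Of all promoters 39.9% hold the RUNX word and 14.9% the T-box word, and neither is in the Itgax window. Itgax instead holds the GATA word AGATAA at -217 (10.3% of promoters) and the AP-1 word TGANTCA at -56 (6.87%), which are not in the Itga1 window. GC content was 50% for Itgax and 57.6% for Itga1, beside a median of 52.0% over all promoters. A match is a run of letters and not a site shown to be bound.

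Each of these genes lies beside other integrin genes, and some of those were higher in KO as well. Itgax (chromosome 7, 128129547 to 128150657, GRCm38) lies between Itgam and Itgad, which encode other partners of the Itgb2 chain. Itgam stood at 4.75 FPKM in KO 3-week and 0.0283 in WT 3-week, a ratio of 168 (counting interval 56.9 to 814) that rests on about 3 reads in WT, and at 0.392 in KO 5-day and 0.203 in WT 5-day. Itgad stood at 0.868 FPKM in KO 3-week, 0.0168 in WT 3-week, 0.197 in KO 5-day and 0.0127 in WT 5-day, with a mean below the 1 FPKM that a comparison required. At 3 weeks Itgax and Itgam were thus past 2-fold, and at 5 days Itgax was. Of the 50-base words of Itgam, 66.34% are shared with Gm49368, which overlaps it on the same strand, so its values are uncertain. Of the 4 compared genes within 100 kb of Itgax, 1 was at least 2-fold higher at 3 weeks, Itgam, and none lower. The shares over all compared genes were 7.97% and 8.19%. Itgam passed the filter on mean FPKM only through KO 3-week, where it is high. Armc5 stood at 7.5 FPKM in KO 3-week and 7.44 in WT 3-week.

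Itga1 (chromosome 13, 114953096 to 115101964, minus strand) has the gene Pelo within its span and the collagen receptor gene Itga2 downstream. Itga2 stood at 6.18 FPKM in KO 3-week and 1.54 in WT 3-week, a ratio of 4.0 (3.48 to 4.63), and at 2.19 in KO 5-day and 1.73 in WT 5-day, a ratio of 1.27 (1.07 to 1.5). Pelo, which encodes a ribosome rescue factor, stood at 31.1 FPKM in KO 3-week, 19.3 in WT 3-week, 17.1 in KO 5-day and 15.4 in WT 5-day. Its log2 ratios of 0.66 and 0.15 were well below those of Itga1. None of the compared neighbours within 100 kb of Itgb2 (3 genes) and Itgb3 (2 genes) reached 2-fold at either time. Over all compared genes 16.2% did at 3 weeks and 3.59% at 5 days.

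**Figure D3:**
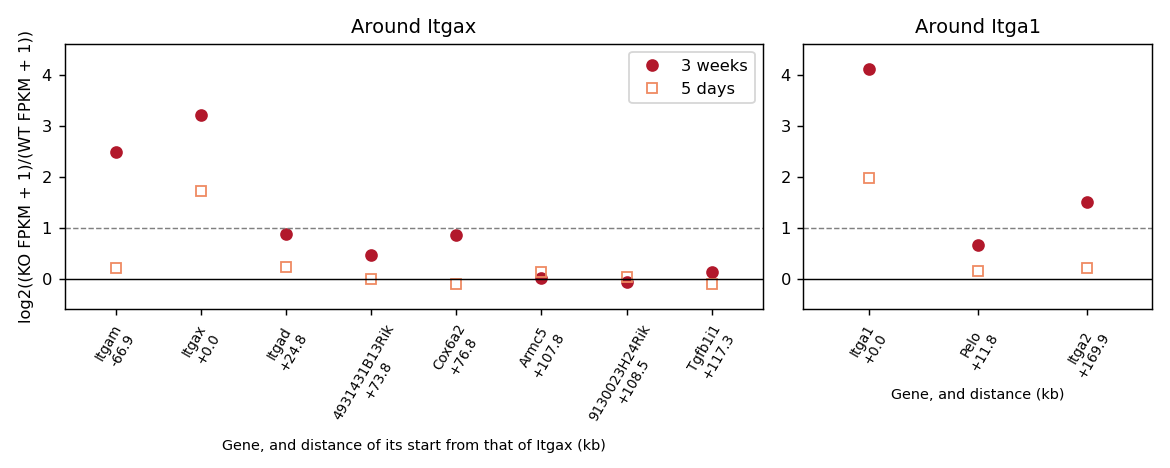
log2((KO FPKM + 1)/(WT FPKM + 1)) at 3 weeks (filled) and 5 days (open) of the measured genes within 100 kb of Itgax and of Itga1, in order along the gene's strand, with the distance of each start in kb. Itgam, Itgax, Itga1 and Itga2 lie above the dashed 2-fold line at 3 weeks, and at 5 days Itgax and Itga1 do.

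Itgal and Itgb2, whose chains form the main T cell receptor for ICAM-1, were both abundant and both higher in KO. Itgal stood at 289 FPKM in KO 3-week, 147 in WT 3-week, 154 in KO 5-day and 119 in WT 5-day, and Itgb2 at 283 FPKM in KO 3-week, 121 in WT 3-week, 167 in KO 5-day and 111 in WT 5-day. Both were highest in KO 3-week and lowest in WT 5-day. For Itgal the KO to WT ratio was 1.97 at 3 weeks (1.93 to 2.00) and 1.3 at 5 days (1.27 to 1.33), and for Itgb2 it was 2.34 (2.28 to 2.40) and 1.51 (1.47 to 1.56). Itgal lay just under 2-fold on the log2(FPKM + 1) scale, at 0.97, and was past it at 1.11 with upper-quartile scaling and 1.08 with median-of-ratios scaling.

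The chain of Itgb2 has 4 alpha partners, and the sum of their RNA was close to that of Itgb2 in each library. Itgb2 FPKM was 0.933 of the summed FPKM of Itgal, Itgam, Itgax and Itgad in KO 3-week and 0.822 in WT 3-week, and 1.06 in KO 5-day and 0.926 in WT 5-day. Itgal made up 95.3% of that sum in KO 3-week and 99.9% in WT 3-week, and 98.1% in KO 5-day and 99.8% in WT 5-day. Despite its ratio, Itgax thus remained a small part of the alpha RNA. RNA levels do not show how much of each chain pairs at the surface.

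Itgb7 was the highest integrin gene in all 4 libraries. It stood at 350.0 FPKM in KO 3-week, 185 in WT 3-week, 328 in KO 5-day and 258 in WT 5-day. The KO libraries lay above the WT libraries at both times, with ratios of 1.90 (1.85 to 1.94) at 3 weeks and 1.27 (1.24 to 1.3) at 5 days. On the log2(FPKM + 1) scale the 3-week ratio was 0.92, and 1.05 or 1.03 with upper-quartile or median-of-ratios scaling, so that its place relative to 2-fold depends on scaling.

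Its alpha partners had far less RNA. Itga4, whose chain also pairs with that of Itgb1, stood at 4.01 FPKM in KO 3-week, 6.28 in WT 3-week, 24.3 in KO 5-day and 19.9 in WT 5-day. It was the 1 gene of the 10 that was lower in KO than in WT at 3 weeks, at a ratio of 0.639 (0.586 to 0.697), and it was higher in KO at 5 days, at 1.22 (1.17 to 1.27). Both 3-week libraries lay below both 5-day libraries: the ratio of 3 weeks to 5 days was 0.165 in KO (0.153 to 0.178) and 0.315 in WT (0.296 to 0.335). Part of Itga4 overlaps exons of Cerkl on the opposite strand, and the sources used here do not say whether counting used strand; Cerkl stood at 1.53 to 1.83 FPKM.

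Itgae, the other alpha partner of Itgb7, was low throughout. It stood at 1.70 FPKM in KO 3-week, 1.44 in WT 3-week, 3.37 in KO 5-day and 2.32 in WT 5-day. The KO to WT ratio at 3 weeks was 1.18 with a counting interval that includes 1 (0.915 to 1.52), and at 5 days it was 1.45 (1.20 to 1.76). FPKM of Itgb7 exceeded the summed FPKM of Itga4 and Itgae 61.3-fold in KO 3-week and 23.9-fold in WT 3-week, and 11.9-fold in KO 5-day and 11.6-fold in WT 5-day. The excess was therefore of like size in both genotypes at 5 days and wider in KO at 3 weeks.

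Itgb1, the beta chain gene with the most alpha partners, showed its larger genotype difference early. It stood at 58.1 FPKM in KO 3-week, 46.7 in WT 3-week, 115 in KO 5-day and 53.9 in WT 5-day. KO 5-day stood apart, and the other libraries lay between 46.7 and 58.1 FPKM. The ratio of KO to WT was 1.25 (1.19 to 1.3) at 3 weeks and 2.13 (2.05 to 2.21) at 5 days. Of its 12 alpha partners the one with most RNA was Itga1 in KO 3-week, with 31.4% of their sum, and Itgav in WT 3-week, with 39.1%; it was Itga4 in KO 5-day, with 39.5%, and in WT 5-day, with 42.7%.

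Itgav and Itgb3 encode the chains of a receptor for vitronectin and osteopontin, and both were higher in KO. Itgb3 stood at 114 FPKM in KO 3-week, 52.2 in WT 3-week, 112 in KO 5-day and 84.1 in WT 5-day. The KO libraries were alike and WT 3-week was the lowest, which gave ratios of 2.19 (2.13 to 2.25) at 3 weeks and 1.33 (1.3 to 1.37) at 5 days. Itgav stood at 15.5 FPKM in KO 3-week, 9.31 in WT 3-week, 11.5 in KO 5-day and 9.43 in WT 5-day. Its WT values differed by less than counting error, at a ratio of 0.987 for 3 weeks over 5 days (0.917 to 1.06), and its KO to WT ratio was 1.67 (1.56 to 1.78) at 3 weeks and 1.22 (1.14 to 1.31) at 5 days. FPKM of Itgb3 exceeded that of Itgav and Itga2b together 5.53-fold to 9.63-fold over the libraries. The platelet integrin gene Itga2b stood at 0.149 FPKM or less except for 0.177 in WT 5-day, and the 7 platelet and megakaryocyte markers summed to 0.780 FPKM in KO 3-week, 0.858 in WT 3-week, 0.842 in KO 5-day and 0.681 in WT 5-day, with Gp9 and Gp6 listed at 0 in all 4.

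**Figure D4:**
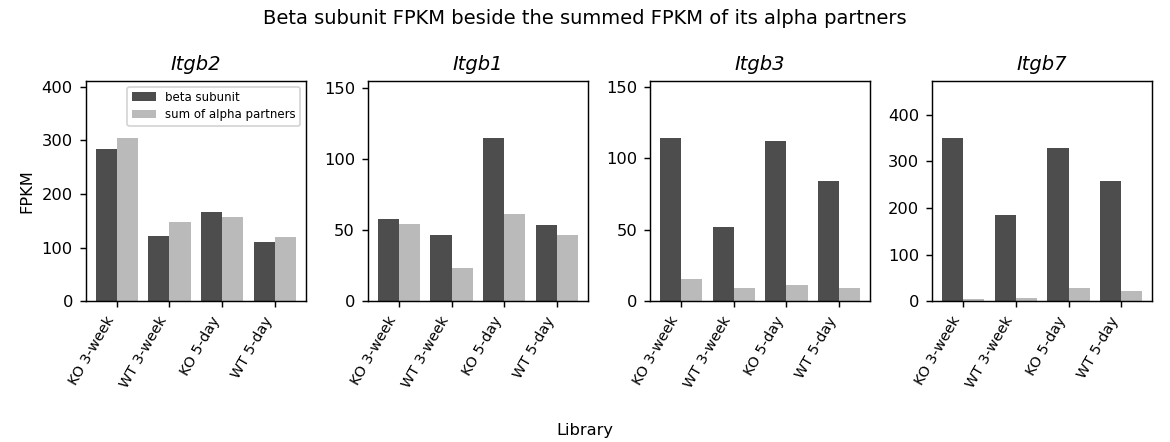
FPKM of each beta gene (dark bars) beside the summed FPKM of its known alpha partners (light bars) in each library. The bars are close for Itgb2, while Itgb3 and Itgb7 stand far above their partners in all 4 libraries.

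Ordered by level, the integrin genes kept a similar order in the WT libraries, and the KO libraries departed from it in part. Itgb7, Itgal, Itgb2, Itgb3 and Itgb1 took the first places in WT at both times, and Itga1 and Itgax the last places. In KO 3-week Itga1 came directly after the abundant genes, above Itgav, and Itgae was last. In KO 5-day Itgb2 stood above Itgal, and Itgax was last as in WT. Of 36 neighbouring pairs over the 4 orders, 5 had overlapping exact Poisson counting intervals: Itgal with Itgb2 in KO 3-week, Itgb1 with Itgb3 and Itga1 with Itgae in KO 5-day, and Itga1 with Itgax in both WT libraries.

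Over culture time, Itga4 was past 2-fold in both KO and WT cells, and Itga1 and Itgax in KO cells. In KO the longer culture was at least 2-fold higher in Itga1 and Itgax (2 of 10, background 4.35%) and lower in Itga4 (1 of 10, background 4.39%; 8.74% in either direction). In WT none was higher (0 of 10, background 3.03%) and Itga4 was lower (1 of 10, background 2.83%; 5.86% in either direction). In KO 7 of 10 had a log2 ratio above 0 (42.9% of all compared genes), and in WT 2 of 10 had (51.9%). Itga1 was 4.71-fold higher at 3 weeks than at 5 days in KO (4.38 to 5.07), against a ratio of 0.294 in WT (0.144 to 0.561) on few reads. Itga1 and Itgax passed the filter on mean FPKM only through the KO libraries. At 0.174 and 0.0501 FPKM in WT 5-day, they could not be 2-fold lower in WT on the log2(FPKM + 1) scale. Itgb1 at a ratio of 0.508 (0.490 to 0.526) and Itgae at 0.504 (0.408 to 0.624) were lower at 3 weeks in KO without passing 2-fold on the log2(FPKM + 1) scale. These comparisons share libraries with those between the genotypes.

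The other integrin subunits mostly had the same direction at 3 weeks. Of 17 measured, 7 had a mean of at least 1 FPKM; 6 of these had a log2 ratio above 0 at 3 weeks and 5 had at 5 days. Itgam passed that filter only through KO 3-week, where it is high. Of the 7, 3 were at least 2-fold higher in KO at 3 weeks (Itgam, Itga2 and Itga3) and none was lower. None reached 2-fold at 5 days. Over all compared genes 7.97% were higher and 8.19% lower at 3 weeks, and 2.77% and 0.82% at 5 days. Itga3, a laminin receptor chain, stood at 6.83 FPKM in KO 3-week and 2.74 in WT 3-week, and at 7.69 in KO 5-day and 4.39 in WT 5-day. Itga5, the fibronectin receptor chain, stood at 1.05 and 0.324 FPKM in KO and WT at 3 weeks, and at 1.79 and 1.11 FPKM in KO and WT at 5 days. Itga7 stood at 0.617 and 0.155 FPKM in KO and WT at 3 weeks and at 3.91 and 2.86 FPKM in KO and WT at 5 days. Itga6 was close to equal between the genotypes, with ratios of 0.924 (0.772 to 1.11) and 0.957 (0.847 to 1.08), and Itgb5 had ratios on either side of 1.

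Among genes of integrin ligands, Spp1, which encodes osteopontin, had the most RNA in KO 3-week. It stood at 424 FPKM in KO 3-week, 44.2 in WT 3-week, 58.7 in KO 5-day and 14.7 in WT 5-day, with KO to WT ratios of 9.59 (9.07 to 10.2) and 4.0 (3.59 to 4.47). Nov, a matricellular protein gene, stood at 19.9 FPKM in KO 3-week and 0.195 in WT 3-week, and at 1.12 in KO 5-day and 0.664 in WT 5-day. Icam1, which encodes a ligand of the Itgal and Itgb2 receptor, stood at 28.1 FPKM in KO 3-week, 18.3 in WT 3-week, 16.5 in KO 5-day and 13.9 in WT 5-day. Icam2, another such ligand, stood at 15.1 FPKM in KO 3-week, 31.9 in WT 3-week, 37.6 in KO 5-day and 38.6 in WT 5-day. Col4a2, a basement membrane collagen chain, stood at 5.04 FPKM in KO 5-day and 0.738 in WT 5-day, against 0.489 in KO 3-week and 0.698 in WT 3-week. Of the 13 compared ligand genes 2 were past 2-fold upwards and 1 downwards in KO at 3 weeks (median log2 ratio 0.00). At 5 days 3 were higher, Spp1, Col4a1 and Col4a2, and none lower (median 0.23). Nov passed the filter on mean FPKM only through KO 3-week, where it is high. Col4a1 and Col4a2 passed it only through KO 5-day, where they are high. The shares over all compared genes were 7.97% and 8.19% at 3 weeks, and 2.77% and 0.82% at 5 days.

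The genes that switch integrins on and link them to actin had KO to WT ratios spread much like those of all compared genes. Of 44 compared, 2 were higher by 2-fold or more in KO and 2 lower at 3 weeks (backgrounds 7.97% and 8.19%). At 5 days 1 was higher and 1 lower (backgrounds 2.77% and 0.82%). Medians of the 44 genes were 0.06 at 3 weeks and 0.01 at 5 days. The middle 50% of their log2 ratios spanned -0.43 to 0.34 at 3 weeks and -0.17 to 0.23 at 5 days, beside -0.49 to 0.31 and -0.18 to 0.17 over all compared genes. Talin (Tln1) stood at 95.5 FPKM in KO 3-week, 88.0 in WT 3-week, 89.9 in KO 5-day and 76.2 in WT 5-day. Kindlin of blood cells (Fermt3) stood at 172 and 159.9 FPKM in KO and WT at 3 weeks, and at 168 and 150.3 FPKM in KO and WT at 5 days. Fyb, which encodes an adaptor that links the T cell receptor to integrins, had the widest difference of the 44 at 3 weeks, at 14.8 FPKM in KO 3-week, 122 in WT 3-week, 85.0 in KO 5-day and 173 in WT 5-day. Its ratios of 0.121 (0.113 to 0.131) and 0.493 (0.475 to 0.51) ran opposite to those of Itgal and Itgb2. Rapgef3, an exchange factor for Rap, stood at 5.83 and 1.34 FPKM in KO and WT at 3 weeks and at 4.35 and 1.49 FPKM in KO and WT at 5 days. Rap1gap2, which turns Rap off, stood at 3.79 FPKM in KO 3-week and 1.16 in WT 3-week. Adap1, a gene of an Arf regulator, stood at 8.49 FPKM in KO 3-week and 36.6 in WT 3-week. It was listed by mistake for the adaptor with a similar name that Fyb encodes, and without it 2 of 43 were higher and 1 lower at 3 weeks.

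**Figure D5:**
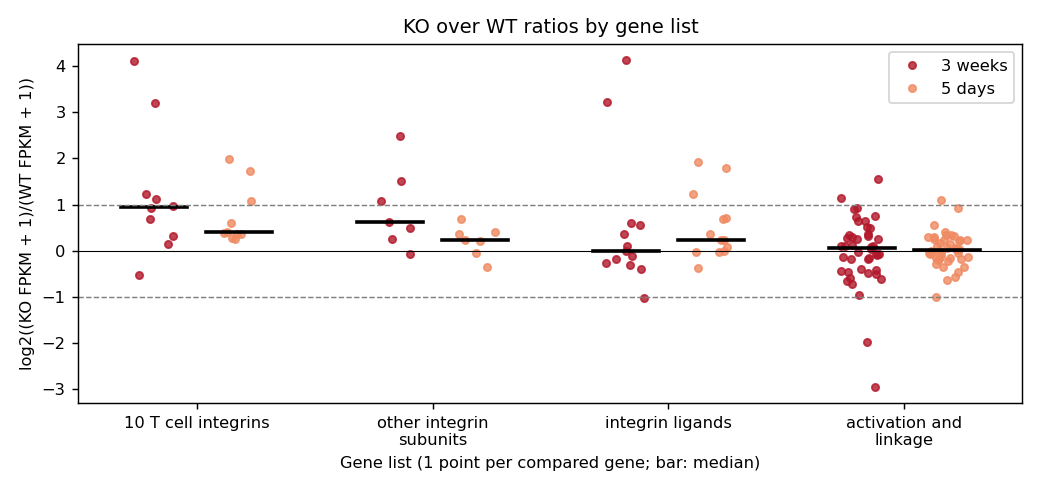
log2((KO FPKM + 1)/(WT FPKM + 1)) of each compared gene in 4 lists at 3 weeks and 5 days, with bars at the medians and dashed lines at 2-fold. The T cell integrins and other integrin subunits lie mostly above 0, and the activation and linkage genes lie on both sides of 0, with medians of 0.06 and 0.01.

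Since Itgax and Itgam also mark myeloid cells, genes of other cell types were measured beside them. The 19 measured myeloid and dendritic cell markers, Itgam included, summed to 45.1 FPKM in KO 3-week and 60.1 in WT 3-week, and to 80.0 in KO 5-day and 56.8 in WT 5-day. The WT 3-week sum is mostly Batf3, at 1.63 FPKM in KO 3-week and 36.7 in WT 3-week, a factor that activated T cells express too. Without it the sums were higher in KO at both times, at 43.4 FPKM in KO 3-week and 23.4 in WT 3-week, and at 70.3 FPKM in KO 5-day and 32.5 in WT 5-day, and their part in the integrin values was not tested. Of these 19, 5 were listed at 0 in KO 3-week, 8 in WT 3-week, 4 in KO 5-day and 6 in WT 5-day. Lyz2, the macrophage lysozyme gene, and Csf1r were listed at 0 in KO 3-week, and the dendritic cell genes Flt3 and Zbtb46 stood at 0.0267 and 0.051 FPKM. Cd14 stood at 2.03 FPKM in KO 3-week and 0.0978 in WT 3-week, and Xcr1 at 2.71 and 2.27 FPKM. Of the 19, 12 were under 1 FPKM in KO 3-week and 14 in WT 3-week. Of 6 compared markers 3 were at least 2-fold higher in KO at 3 weeks and 2 lower, beside 7.97% and 8.19% of all compared genes. Among them were Cd68 (12.9 and 3.25 FPKM in KO and WT), H2-Ab1 (17.8 and 3.50) and Cd74 (2.58 and 13.5). Itgam, also among the higher, passed the filter on mean FPKM only through KO 3-week. The 9 NK and CD8 T cell markers summed to 29.8 FPKM in KO 3-week and 2.63 in WT 3-week, and to 23.2 in KO 5-day and 8.68 in WT 5-day. Klrd1 stood at 11.1 FPKM in KO 3-week and 0.127 in WT 3-week. The other compared markers were Klrc1 (6.13 and 0.0878 FPKM), Eomes (6.36 and 0.36 FPKM) and Cd8b1 (3.12 and 2.04 FPKM), in the same order. The NK receptor gene Ncr1 had 0.11 FPKM in KO 3-week, against a listed 0 in WT 3-week. None of the 9 was listed at 0 in KO 3-week, against 4 in WT 3-week, and 1 was in KO 5-day, against 2 in WT 5-day. The NK and CD8 sums were higher in both KO libraries, as Itgax and Itga1 were, and their part in the integrin values was not tested. B cell markers (6 genes) summed to 0.278 FPKM in KO 3-week, 0.177 in WT 3-week, 2.86 in KO 5-day and 1.62 in WT 5-day. Mast cell and basophil markers (8 genes) summed to 18.7 FPKM in KO 3-week, 10.5 in WT 3-week, 25.1 in KO 5-day and 14.8 in WT 5-day, mostly from Cpa3 and Mcpt8.

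Genes with the profile most like a member were sought for the 3 integrins whose log2(FPKM + 1) spanned at least 2, by the Euclidean distance of centred profiles over the 4 libraries and among 10799 genes. For Itga1 they were Gzmn (distance 0.20), Gzmb (0.24) and Cd244 (0.29), of which Gzmb, a cytotoxic protease gene, stood at 7838 FPKM in KO 3-week, 539.7 in WT 3-week, 2469.8 in KO 5-day and 599 in WT 5-day. For Itgax they were Clnk (0.21), Padi2 (0.22) and the basophil protease gene Mcpt8 (0.27), at 7.93 FPKM in KO 3-week, 0.266 in WT 3-week, 2.63 in KO 5-day and 0.0754 in WT 5-day. Itgax and Itga1 lay 0.69 apart. For Itga4 they were Lyl1 (0.22), Chchd10 (0.38) and Apbb1ip (0.41); the last encodes the Rap effector RIAM and stood at 2.88 FPKM in KO 3-week, 5.38 in WT 3-week, 14.1 in KO 5-day and 15.9 in WT 5-day. With 4 libraries many genes can lie this close, and the distances are descriptions.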

How the data were processed

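TRIzol RNA went into TruSeq Stranded mRNA libraries, per the labels' protocols. The deposited FPKM values were made by the authors with Bowtie 0.12.8, TopHat 1.3.2 and Cufflinks 2.0.2 on mm10, per the submitters' processing notes; the sources used here do not give the annotation, the read layout or the use of strand. All 4 tables had 23746 lines. The 240 symbols on several lines were summed (none of the integrins), and 1 symbol with a spreadsheet error mark was left out.

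Depth was inferred from low values of 2818 single-transcript genes (GENCODE M21), with 200 bases subtracted from the length. Of those values, 58.3% to 61.8% lay within 0.05 of a whole read, against 10% if evenly spread. Implied reads use the longest annotated transcript and are approximate. No test was possible with 1 library per group. Promoters are from RefSeq (6 of 10 integrins matched). Members and lists were chosen with earlier results of these data known. All 10 integrins are named; of other lists, integrin subunits with a mean of at least 1 FPKM and, per list, up to 4 genes with the largest 3-week and 2 with the largest 5-day ratio among those reaching 5 FPKM in a library; further list genes were named after their values were seen. The ratio, the 2-fold rule and the intervals were checked on simulated counts. Alternatives were pseudocounts of 0.1 and 5, 2 scalings, 2 filters, the highest line per symbol and, added later, leaving out 164 short RNA genes, Batf3 or Adap1. Python 3.11.15, pandas 2.3.3 and scipy 1.17.1 were used.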

Additional observations from a re-analysis of the deposited data

Results flagged for a closer look

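The genotype ratio lay on opposite sides of 1 at 3 weeks and 5 days, with counting intervals that exclude 1 at both times, in 11 named genes. Only named genes were examined, many of them chosen for a large genotype ratio, and no share over all genes was computed. The difference between the times was not tested, and each time rests on 1 library per genotype. Among integrins, Itga4 had a KO to WT FPKM ratio of 0.639 at 3 weeks and 1.22 at 5 days, and Itgb5 had 1.21 and 0.769. The same held for the ligand gene Col4a2 (0.701 at 3 weeks and 6.83 at 5 days), for Cd69, which marks recently activated and resident T cells (3.28 and 0.777), and for Klf2, a factor of naive T cells (1.42 and 0.535). Among markers it held for Cd247 (1.13 and 0.641), Cd74 (0.191 and 1.92), Il13 (0.182 and 2.27), Il5 (0.236 and 1.97), Il4 (0.291 and 1.52) and Il1rl1 (0.356 and 1.66), with the 3-week ratio first.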

How the results depend on the processing

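No paired analysis was possible because each group held 1 library and no result comes from a test. Of 100 integrin log2 values under the 2 scalings, ratios and differences between the times included, 70 stayed within counting error and none changed sign. The scaling factors lay between 0.947 and 1.04, so a change of sign was possible only for values near 0. A pseudocount cannot change the sign of a ratio, and no integrin symbol was on several lines. Without Batf3, left out after seeing the data, the KO to WT ratio of summed myeloid markers was 1.85 at 3 weeks, beside 0.75 with it, and 2.16 at 5 days, beside 1.41. With upper-quartile or median-of-ratios scaling 6 of 10 integrins, not 4, were at least 2-fold higher in KO at 3 weeks (Itgal and Itgb7 added), and the median of all genes moved from -0.08 to 0.03 or 0.01. Of genes past 2-fold at 3 weeks 49.3% were higher in KO as deposited, and 60.4% with upper-quartile scaling. A pseudocount of 5 left 1 of 10 integrins past 2-fold at 5 days and 0 past 4-fold for the difference between times. Counts over all genes moved by more than 1.5 times at a pseudocount of 5 (898 of KO against WT at 3 weeks, 178 at 5 days, 468 for 3 weeks against 5 days in KO, 276 in WT, and 132 for the difference). At a pseudocount of 0.1 they were 642 for KO against WT at 5 days and 398 for the difference, beside 394 and 224. With a mean of at least 5 FPKM 421 genes stood apart between the culture times in WT, beside 643, and without short RNA genes, an alternative chosen after seeing the data, 128 did for the difference. The WT values of Itgax and Itga1 rest on few reads, so their ratios are imprecise.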

Other observations

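Other adhesion and homing receptors differed in both directions. Of 22 compared, 6 were higher by 2-fold or more and 4 lower in KO at 3 weeks (median log2 ratio -0.10), beside 7.97% and 8.19% of all compared genes. At 5 days 1 was higher and 2 lower (median -0.06), beside 2.77% and 0.82%. The gene higher at 5 days, Klrg1, is also among the 6 at 3 weeks. Klrg1 passed the filter on mean FPKM only through the KO libraries, where it is high. Cd24a stood at 2.20 and 15.5 FPKM in KO and WT at 3 weeks and at 51.8 and 141 FPKM in KO and WT at 5 days. Slamf1 stood at 2.25 FPKM in KO 3-week and 17.7 in WT 3-week. Cd96 stood at 22.9 FPKM in KO 3-week and 4.37 in WT 3-week, and the tetraspanin gene Cd9 at 5.07 and 0.128 FPKM.

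Of 19 compared genes of the TGF-beta axis and other regulators of Itgae, 4 were higher by 2-fold or more in KO at 3 weeks. None was lower (median 0.41), beside 7.97% higher and 8.19% lower of all compared genes. At 5 days 1 was higher and none lower (median -0.04), beside 2.77% and 0.82%. The gene higher at 5 days, Tgfb3, is also among the 4 at 3 weeks. Tgfb3 stood at 4.55 FPKM in KO 3-week, 0.106 in WT 3-week, 1.49 in KO 5-day and 0.195 in WT 5-day. It thus passed the filter on mean FPKM only through the KO libraries. Tgfbr2, a receptor chain, stood at 48.0 FPKM in KO 3-week and 18.1 in WT 3-week, and at 52.5 in KO 5-day and 30.4 in WT 5-day. Runx3 stood at 53.6 and 29.4 FPKM in KO and WT at 3 weeks, and Smad3 at 11.3 and 22.5 FPKM. Itgae itself had a log2 ratio of 0.14 at 3 weeks. Cd69 stood at 24.2 FPKM in KO 3-week and 7.39 in WT 3-week.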
